A study of Mus musculus with 14 samples.

Results

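A set of 4 genes of the major histocompatibility complex (MHC) class II pathway are described here across natural killer (NK) cells and stromal cells of a mouse breast tumour model. They are H2-Aa and H2-Ab1, which encode the α and β chains of the class II molecule I-A, H2-Ea, which encodes the α chain of the class II molecule I-E, and Cd74, which encodes the invariant chain. They were chosen by name, as 4 of the 13230 genes listed in either deposited count table, and all 4 were listed in both tables. The levels were read in each library of the sCAF table and in the 3 groups of the NK table.

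The study measured 3′ end RNA by bulk sequencing of sorted cells from female BALB/c mice aged 8 weeks. Tumours grew from 100000 cells of 4T1-GFP, a mouse mammary carcinoma line carrying green fluorescent protein, injected into a mammary fat pad. The 4 groups were NK cells from spleens of healthy mice (3 libraries), NK cells from spleens of mice with a 4T1 tumour (4 libraries), NK cells from 4T1 tumours (4 libraries) and sCAFs, a class of cancer-associated fibroblast, from 4T1 tumours (3 libraries). The sort for NK cells kept those with CD45 and NKp46 and without CD3, CD14, CD31, EPCAM or GFP, and the sort for sCAFs kept those without CD31, CD45, PDPN, EPCAM or GFP. No group carried an engineered allele or a drug according to the labels. Tumours were digested with collagenase A and DNase for 20 min at 37 °C, whereas spleens were crushed and freed of red cells on ice, so tissue and dissociation cannot be told apart in any tumour against spleen comparison. The labels number repetitions without saying whether each came from its own mouse, so p-values measure the spread between libraries, which may be partly technical.

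MHC class II molecules are pairs of an α and a β chain that carry peptides from the endosome to the cell surface, where CD4 T cells read them. The invariant chain holds the empty groove shut until endosomal proteases, cathepsin S above all, trim it away, and the H2-DM heterodimer then exchanges the remaining fragment for peptide. Transcription of these genes is switched on together by Ciita, a co-activator without DNA binding of its own, which docks on factors held at paired X and Y boxes in front of each gene. B cells, dendritic cells and macrophages make class II constantly, and interferon gamma induces it in fibroblasts and other stromal cells. H2-Ea needs a further remark: the reference mouse, C57BL/6, carries a defective allele, whereas BALB/c, of the H-2d haplotype, makes I-E.

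In the GENCODE M21 annotation of GRCm38, H2-Ab1 lies at chr17:34257689-34269419 on the plus strand and H2-Aa at chr17:34282744-34287823 on the minus strand. H2-Ea, annotated as the polymorphic pseudogene H2-Ea-ps, lies at chr17:34341959-34344645 on the minus strand. Between them lies H2-Eb1 at chr17:34305867-34316674 on the plus strand, the gene of the β chain that pairs with H2-Ea, which was kept on the pathway list beside the 4 members. An antisense gene, Gm20513, overlaps H2-Eb1 without sharing an exon. The class II chain genes are among the most polymorphic in mice, and the reads were aligned to build mm10, of the C57BL/6 strain, per the submitters' processing notes. Whether this lowered the counts of any BALB/c allele was not tested, and 3′ end counts were not divided by transcript length, so a difference in level between genes may not be a difference in molecules.

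Stretches in front of class II genes where the boxes are looked for are shown next, since several of the genes were high and low in the same libraries. They come from RefSeq promoter windows of the C57BL/6 reference (GRCm38.p6), and H2-Aa was the 1 member of 4 with an entry. Capitals mark matches to the Y box letters TGATTGG, read on the other strand as CCAATCA, and to the X box letters AACNNATG, read on the other strand as CATNNGTT, which do not overlap each other in any of them. The H2-Aa stretch is chr17:34287824-34288073 on the minus strand and the H2-Eb1 stretch chr17:34305617-34305866 on the plus strand, 250 bases each up to the gene's start. Shorter stretches of 60 bases show the same letters before both H2-DM β chain genes, H2-DMb1 at chr17:34153083-34153142 and H2-DMb2 at chr17:34145112-34145171, and before H2-Oa, the α chain gene of the inhibitor H2-DO, at chr17:34092289-34092348, all on the plus strand.
H2-Aa: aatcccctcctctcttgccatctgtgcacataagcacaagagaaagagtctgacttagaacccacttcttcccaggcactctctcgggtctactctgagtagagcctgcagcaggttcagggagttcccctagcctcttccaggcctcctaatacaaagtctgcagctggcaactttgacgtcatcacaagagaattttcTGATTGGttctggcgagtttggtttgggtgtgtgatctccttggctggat
H2-Eb1: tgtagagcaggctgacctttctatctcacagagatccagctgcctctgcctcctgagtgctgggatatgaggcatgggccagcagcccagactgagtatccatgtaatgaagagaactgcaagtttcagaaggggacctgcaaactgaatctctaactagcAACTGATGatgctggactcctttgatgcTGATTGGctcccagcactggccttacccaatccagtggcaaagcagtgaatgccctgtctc
H2-DMb1: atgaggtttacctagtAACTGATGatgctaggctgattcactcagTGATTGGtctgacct
H2-DMb2: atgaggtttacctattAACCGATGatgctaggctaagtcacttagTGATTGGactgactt
H2-Oa: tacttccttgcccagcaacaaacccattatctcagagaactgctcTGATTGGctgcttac

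Both boxes stood in the H2-Eb1 stretch, with 28 bases from the first base of the X box to the first base of the Y box. The spacing was 29 bases in H2-DMb1 and in H2-DMb2. H2-Aa and H2-Oa had the Y box letters alone, starting 50 and 45 bases before the gene's start, which says only that the X box letters as spelt are not in those windows. Of the 8 class II H2 genes of the pathway list that the promoter table held, 7 had the Y box, 5 the X box and 5 both. The gene with neither was H2-DMa. Among all 32851 promoter windows of 250 bases, 7.23% held the Y box letters, 7.71% the X box letters and 0.664% both. The letters were chosen with these windows in view, and a match is a description, not a binding site.

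The 11 NK libraries held 559688 to 1966963 counts and the 3 sCAF libraries 1318067 to 2230475, and 8471 of 10210 NK genes were tested. NK levels are CPM, each count rescaled so that all libraries sum alike, on library sizes scaled by the trimmed mean of M values (TMM), and sCAF levels are CPM on raw totals. All 8 NK marker genes were found in the NK libraries, with a sum of 17064 to 22395 CPM in tumour NK and 25008 to 28709 CPM in tumour-bearing spleen NK. Between these groups 6 of the 8 fell in tumour NK (Ncr1, Klrb1c, Tbx21, Prf1, Nkg7 and Klre1), as did 13.2% of all genes tested. None of the 8 is listed in the sCAF table. The spleen libraries split on the second principal component, with healthy replicate 1 and tumour-bearing replicates 1 and 2 on the same side. Tumour NK replicate 3 stood apart in macrophage genes: it had 12 counts of Csf1r, the macrophage growth factor receptor, against 0 or 1 in every other NK library, 39 of C1qa against at most 6, and 67 of Lyz2 against at most 9. A gene was called changed at a Benjamini-Hochberg adjusted p under 0.05 in edgeR's quasi-likelihood test over all genes tested, and n below is the number of libraries.

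All 4 genes rose in NK cells from tumours against NK cells from spleens of tumour-bearing mice. In that comparison 29% of all genes tested were called, 15.8% as higher in tumours and 13.2% as lower. The 4 members had a median log2 fold change of 1.5, against 0.0014 over all genes tested. Bulk libraries cannot tell more cells that express a gene from more RNA of it per cell, and this holds for every NK value here.

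H2-Aa, the I-A α chain, was read at 127.1, 86.9, 126.3 and 131.2 CPM in tumour NK replicates 1 to 4 and at 48.8, 22.3, 30.4 and 21.7 CPM in the tumour-bearing spleens. Every tumour library lay above every spleen library, with replicate 2 the lowest of the tumours and replicate 1 the highest of these spleens. Means were 117.9 ± 20.7 (SD, n = 4) and 30.8 ± 12.6 CPM (SD, n = 4), a log2 fold change of 1.96 ± 0.24 (SE, edgeR adjusted p = 5.1e-06).

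H2-Ab1, the β chain partner of H2-Aa, was at 117.2, 117.4, 135.3 and 157.8 CPM in the tumour libraries and at 38.1, 29.0, 53.5 and 65.8 CPM in the tumour-bearing spleens. These ranges did not overlap either, although the highest spleen library here was replicate 4, which was the lowest for H2-Aa. The log2 fold change was 1.51 ± 0.23 (SE, edgeR adjusted p = 9.73e-05) between means of 131.9 ± 19.2 (SD, n = 4) and 46.6 ± 16.3 CPM (SD, n = 4).

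Cd74, the chaperone of newly made class II, lies apart from the H2 genes at chr18:60803848-60812652 on the plus strand (GRCm38), with the microRNA gene Mir5107 within an exon of it. It was at 62.3, 47.8, 105.2 and 64.7 CPM in tumour NK replicates 1 to 4 and at 34.3, 15.6, 30.4 and 34.7 CPM in the tumour-bearing spleens. The groups did not overlap, and the highest value was that of tumour NK replicate 3, the library with the macrophage genes. Its log2 fold change was 1.33 ± 0.26 (SE, edgeR adjusted p = 0.00105). Ranges that did not overlap, in either direction, were seen in 29.7% of all genes tested in this comparison, 16.5% with the tumours higher and 13.3% with them lower.

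H2-Ea, the I-E α chain, was the lowest of the 4 in every tumour NK library, and it was counted from few reads. It had 23, 11, 31 and 7 counts in the tumour libraries (18.9, 15.9, 18.6 and 6.66 CPM) and 13, 4, 9 and 8 counts in the tumour-bearing spleens (9.91, 2.23, 4.63 and 5.79 CPM). The groups overlapped: tumour NK replicate 4 was below tumour-bearing spleen replicate 1. The log2 fold change of 1.49 ± 0.40 (SE) passed the test (edgeR adjusted p = 0.00886), but against tumour-bearing spleen replicates 1 and 2 alone it did not (log2 fold change 1.42, adjusted p = 0.0627). Its β chain partner H2-Eb1 was at 78.7, 60.9, 89.0 and 80.8 CPM in tumours and 21.3, 11.7, 21.6 and 28.2 CPM in these spleens, with no overlap (log2 fold change 1.93 ± 0.22 SE, edgeR adjusted p = 1.88e-06).

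**Figure D1:**
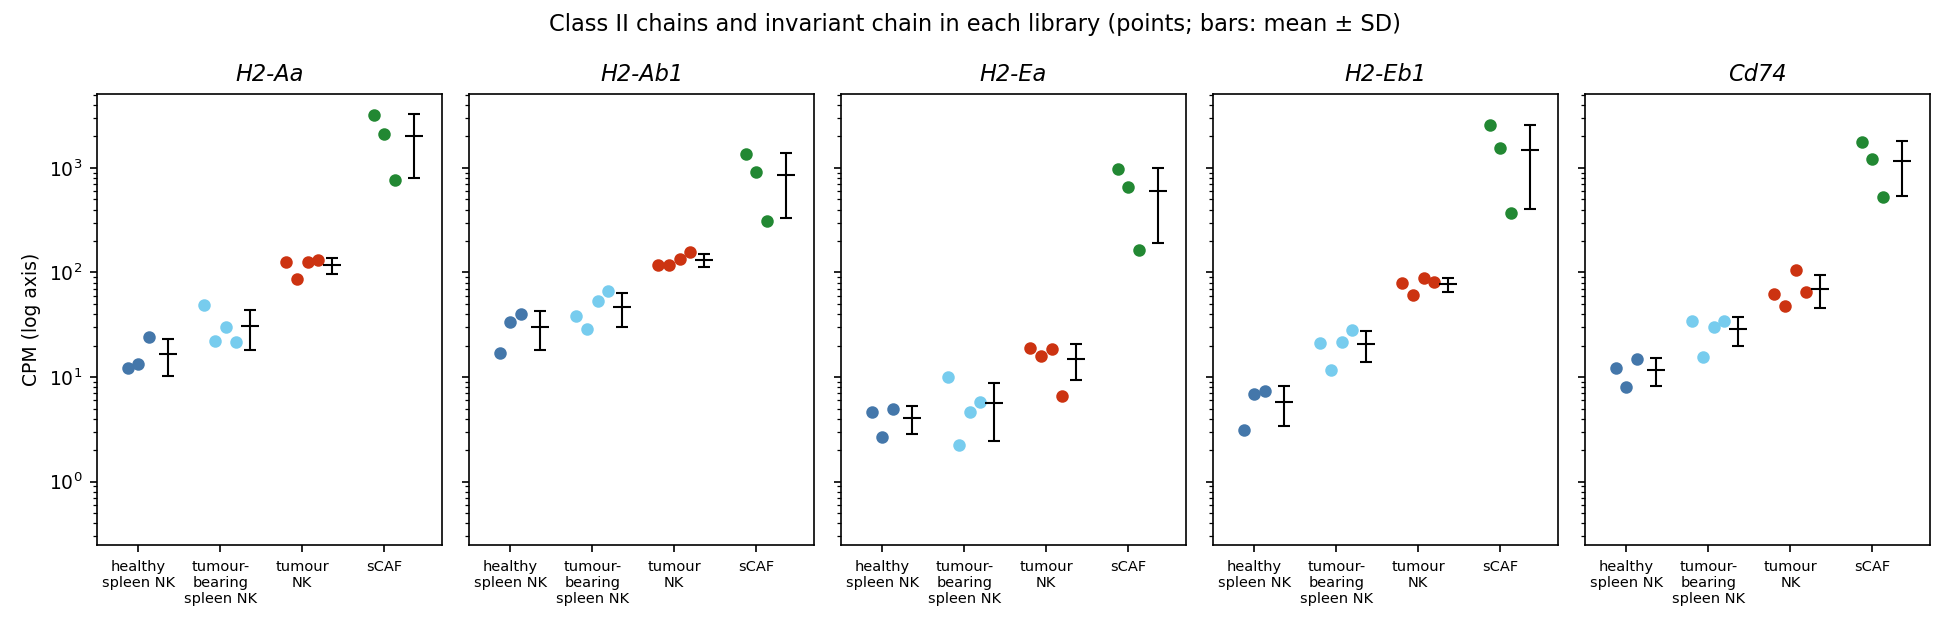
CPM on a log axis for the 4 members and H2-Eb1 in each library (points) by group, with the mean ± SD as a bar to the right of each group; NK levels use TMM library sizes and sCAF levels raw totals. The 3 sCAF libraries lie above all 11 NK libraries in every panel, and H2-Ea is the panel in which the tumour NK and tumour-bearing spleen libraries overlap.

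Against healthy spleens, the same tumour libraries were higher for all 4 genes, and here 30.5% of all genes tested were called, 16.5% as higher and 14% as lower. This comparison shares its tumour libraries with the preceding comparison and is no second line of evidence. H2-Aa was at 12.3, 13.4 and 23.9 CPM in healthy spleen NK replicates 1 to 3, and the tumour mean was higher by a log2 fold change of 2.82 ± 0.30 (SE, edgeR adjusted p = 1.15e-06). The largest fold among the chains was that of H2-Eb1, at 3.08, 6.96 and 7.43 CPM in healthy spleens and a log2 fold change of 3.60 ± 0.31 (SE, edgeR adjusted p = 4.53e-08).

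H2-Ab1 was at 17.0, 33.7 and 40.4 CPM in healthy spleens, with a log2 fold change of 2.05 (edgeR adjusted p = 2.39e-05). Cd74 was at 12.3, 8.03 and 14.9 CPM there, and its log2 fold change was 2.66 (edgeR adjusted p = 1.69e-05). H2-Ea had 3, 5 and 6 counts in the healthy libraries, at or near the limit of 3 counts that a count of 0 allows, and its log2 fold change of 1.97 ± 0.50 (SE) had an adjusted p of 0.00521 in edgeR. That call was lost without healthy replicate 2 (log2 fold change 1.64, adjusted p = 0.0538). No tumour library overlapped a healthy library in any of the 4 genes, as was true of 34.8% of all genes tested in either direction, 18.5% with the tumours higher and 16.3% with them lower.

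Between the spleens of tumour-bearing and healthy mice, none of the 4 members was called by edgeR, in a comparison where 1.58% of all genes tested were, 1.23% as higher in tumour-bearing mice and 0.354% as lower. All 4 had positive log2 fold changes: 0.86 for H2-Aa (adjusted p = 0.241), 0.54 for H2-Ab1 (adjusted p = 0.5), 0.49 for H2-Ea (adjusted p = 0.83) and 1.33 for Cd74 (adjusted p = 0.0883). Before adjustment the edgeR p was 0.0137 for H2-Aa, 0.0715 for H2-Ab1, 0.389 for H2-Ea and 0.00208 for Cd74. Cd74 alone of the 4 had groups that did not overlap, with 15.6 to 34.7 CPM against 8.03 to 14.9 CPM. Such a gap, with tumour-bearing spleens higher, was seen in 6.52% of all genes tested, and the reverse gap in 5.71%. DESeq2 called Cd74 (adjusted p = 0.0409), as did edgeR without tumour-bearing spleen replicate 2 (adjusted p = 0.0164). So did edgeR with the side of the spleen libraries on the second component as a block (adjusted p = 0.00121), a fit that also called H2-Ab1 (adjusted p = 0.00931). That side was read from the same expression values, so the fit with it is no independent support. H2-Eb1 was called, with a log2 fold change of 1.67 ± 0.34 (SE, adjusted p = 0.0119), but not without healthy replicate 2 (adjusted p = 0.0929).

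The order of the group means was therefore the same for all 4 genes, from healthy spleen NK through tumour-bearing spleen NK and tumour NK to sCAF. The neighbours at the bottom of that order, the spleen groups, did not differ by the test for any of the 4, and tumour NK differed from both.

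The genes that act on class II around the members were read from a list of 39 pathway genes, 30 of them listed in the NK table and 24 tested. Of these 24, 12 rose and 1 fell in tumour NK against tumour-bearing spleen NK (median log2 fold change 0.62), and without the members 8 of 20 rose and 1 fell (median 0.27). Against healthy spleens 13 rose and 1 fell, and between the spleens 1 rose, which was H2-Eb1. Over all genes tested, 15.8% rose and 13.2% fell against tumour-bearing spleens. The shares were 16.5% and 14% against healthy spleens, and 1.23% and 0.354% between the spleens.

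Among the genes that load and edit peptide, H2-DMa, the α chain of the editor H2-DM, was at 51.5 ± 9.74 (SD, n = 4) CPM in tumour NK and 47.8 ± 5.99 (SD, n = 4) CPM in tumour-bearing spleen NK, and was not called (log2 fold change 0.13, edgeR adjusted p = 0.634). H2-DMb1, its β chain, had 6 counts in tumour NK replicate 3, at most 2 in every other NK library and 0 in 8 of the 11, so it was too low to be tested. H2-Oa was at 18.7 ± 6.39 CPM against 11.5 ± 3.66 CPM (SD, n = 4 each; log2 fold change 0.79, edgeR adjusted p = 0.07). The α chain of the editor was thus counted in every NK library while its β chain was close to none.

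Of the 7 listed genes of transcriptional control 4 were tested (Rfx5 of the X box complex and Nfya, Nfyb and Nfyc of the Y box complex), and none was called by edgeR in any of the 3 comparisons. In tumour NK against tumour-bearing spleen NK their log2 fold changes ran from -0.47 for Nfyb to 0.15 for Rfx5. Ciita has no row in the NK table and was not analysed there. In these 12 gene comparisons the smallest unadjusted p was 0.0708, so none was under 0.05, and DESeq2 called none. On raw library totals edgeR called Nfya lower in tumour NK than in healthy spleen NK (log2 fold change -0.63, adjusted p = 0.0339).

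The interferon gamma route leads from the receptor through the kinases Jak1 and Jak2 to class II induction. Of its 4 tested genes 3 were called higher in tumour NK than in tumour-bearing spleen NK, as were 15.8% of all genes tested. Ifngr1, the ligand-binding receptor chain, rose by a log2 fold change of 1.33 ± 0.15 (SE, edgeR adjusted p = 1.88e-06), from 288.3 ± 32.6 to 722.4 ± 122.6 CPM (SD, n = 4 each). Jak2 rose by 1.00 and Irf1 by 0.49 on the log2 scale, both called by edgeR, and Jak1 was not called (0.22). The call of Irf1 was lost without tumour NK replicate 2 (adjusted p = 0.0505), without tumour-bearing spleen replicate 1 (adjusted p = 0.0578) and against tumour-bearing spleen replicates 3 and 4 alone (adjusted p = 0.164). Against healthy spleens Irf1 was not called either (log2 fold change 0.32, adjusted p = 0.139).

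The endosomal enzymes moved in both directions. Ctss, cathepsin S, rose from 71.5 ± 9.51 to 157.7 ± 18.3 CPM (SD, n = 4 each; log2 fold change 1.15, edgeR adjusted p = 3.39e-06), and Ctsd, cathepsin D, fell from 1970 ± 267 to 1277 ± 128 CPM (SD, n = 4 each; log2 fold change -0.62, edgeR adjusted p = 0.00283). The call of Ctsd was lost against tumour-bearing spleen replicates 1 and 2 alone (adjusted p = 0.0784). Ifi30, the lysosomal thiol reductase, was called at an adjusted p of 0.0466 in edgeR (log2 fold change 0.93), a call that was lost in 14 of 17 alternative fits. Cd83, which holds class II at the surface by blocking its ubiquitination, was at 34.4, 33.3, 16.8 and 21.9 CPM in tumours, with 1, 6, 6 and 1 counts in the tumour-bearing spleens. Its fitted log2 fold change of 3.54 rests on those few spleen counts. Marchf8, a ubiquitin ligase of the family that acts on class II, was not called (log2 fold change 0.19).

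**Figure D2:**
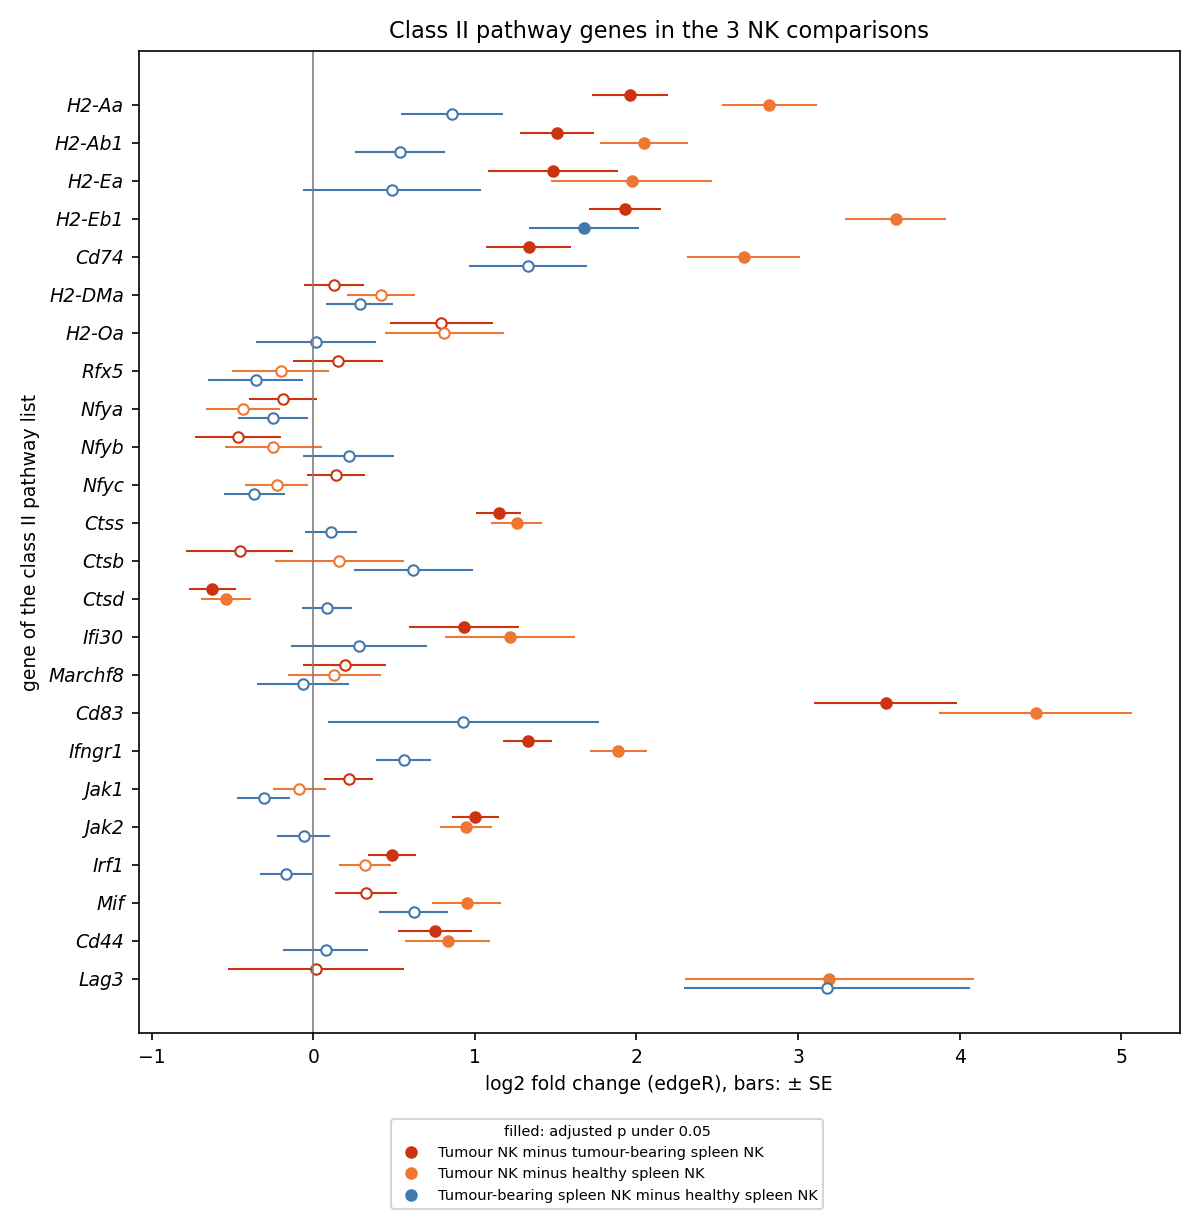
Log2 fold change ± SE in edgeR for the 24 tested genes of the class II pathway list in the 3 NK comparisons; filled points are called at an adjusted p under 0.05 and open points are not. The chains and Cd74 lie right of 0 in all 3 comparisons, while H2-DMa, Rfx5 and the Nfy genes are open in each.

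Lag3, an inhibitory receptor that binds class II, was not called between tumour and tumour-bearing spleen. It was at 11.5, 10.1, 53.5 and 26.6 CPM in tumour NK and 19.8, 17.3, 20.1 and 52.8 CPM in tumour-bearing spleen NK (log2 fold change 0.02, edgeR adjusted p = 0.988). Against healthy spleens, with 0, 6 and 5 counts, it was called (log2 fold change 3.19, edgeR adjusted p = 0.0223), and that call was lost when any of the 3 healthy libraries was left out. Cd44, which signals with Cd74, was called with a log2 fold change of 0.75 (edgeR adjusted p = 0.0193), and was not called on raw library totals, against tumour-bearing spleen replicates 1 and 2 alone, or when tumour NK replicate 3, tumour-bearing spleen replicate 3 or tumour-bearing spleen replicate 4 was left out. Mif, the ligand of Cd74, was not called against tumour-bearing spleens (log2 fold change 0.33, edgeR adjusted p = 0.22) and rose against healthy spleens (log2 fold change 0.95, edgeR adjusted p = 0.00293).

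Markers of other cell types were read beside these results. Of the dendritic cell list 2 of 10 genes were listed, with a summed level of 178.2 to 247.7 CPM in tumour NK and 245.4 to 323.8 CPM in tumour-bearing spleen NK. Zbtb46, a dendritic cell transcription factor, rose to 12.4 to 23.0 CPM in tumours from 3.62 to 5.34 CPM in tumour-bearing spleens (log2 fold change 1.76, edgeR adjusted p = 0.00058), whereas Itgax, also made by NK cells, fell (log2 fold change -0.44, edgeR adjusted p = 0.0213), a call lost without tumour NK replicate 1 or 2 or spleen replicate 3 (adjusted p 0.0586 to 0.0867). Of 13 B cell genes only Cd79b was listed, with 2, 1, 6 and 4 counts in tumour NK and 8, 7, 9 and 8 counts in tumour-bearing spleen NK. These counts are 1.45 to 3.80 CPM and 3.91 to 6.10 CPM. The tumour counts were near the limit of 3 counts, and Cd79b was not tested.

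The macrophage and monocyte list had 9 of 14 genes listed and summed to 1603 to 1963 CPM in tumour NK and 833.9 to 1417 CPM in tumour-bearing spleen NK. Most of each sum was Ccr2 and Ly6c2, of which neither was called in this comparison (edgeR adjusted p = 0.299 and 0.774). In tumour NK replicates 1, 2 and 4 the counts were 0, 1 and 0 for Csf1r, 6, 1 and 1 for C1qa, 5, 5 and 6 for Lyz2, and 13, 7 and 14 for Apoe, a lipid carrier of macrophages, which had 175 counts in replicate 3. Apoe was called higher in tumour NK than in tumour-bearing spleen NK (log2 fold change 2.84, edgeR adjusted p = 0.0406), but the log2 fold change was 1.10 without tumour NK replicate 3 (adjusted p = 0.0452), and the call was lost without any 1 of the 4 tumour-bearing spleen libraries (adjusted p 0.0819 to 0.0958). Without tumour NK replicate 3 the log2 fold changes against tumour-bearing spleens were 1.92 for H2-Aa, 1.48 for H2-Ab1, 1.32 for H2-Ea and 1.03 for Cd74, and all 4 stayed called, H2-Ea with an adjusted p of 0.0441. The neutrophil list, 4 of 7 genes listed, summed to 60.8 to 158.0 CPM in tumour NK and 1.45 to 11.2 CPM in tumour-bearing spleen NK.

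Stromal and carcinoma markers were read in the same way. Of the epithelial list 2 of 9 genes were listed, with a sum of 27.7 to 54.9 CPM in tumour NK and 0 to 2.79 CPM in tumour-bearing spleen NK. Cdh1, the adhesion molecule E-cadherin, rose (58, 32, 44 and 50 counts against 3, 4, 0 and 0, log2 fold change 5.13, edgeR adjusted p = 6.54e-07). Epcam, the other listed gene, had 9, 2, 2 and 5 counts against 0, 1, 2 and 0 and was not tested. The keratins of that list have no row among the NK genes. Of the fibroblast list 4 of 11 genes were listed, with a sum of 723.1 to 943.2 CPM against 368.4 to 537.4 CPM. Nearly all of that sum was Thy1, at 717.3 to 923.2 CPM against 353.9 to 530.1 CPM (log2 fold change 0.87, edgeR adjusted p = 0.000232). Thy1 was at 158.7 to 227.4 CPM in healthy spleen NK too, so it does not mark fibroblasts alone here. Col1a2 rose (15, 2, 18 and 13 counts against 3, 14, 6 and 6, log2 fold change 1.16, edgeR adjusted p = 0.0468). Col3a1 had 11, 0, 4 and 1 counts against 1, 7, 4 and 0. Sparc had 11, 2, 1 and 7 counts against 0, 5, 7 and 4, and neither of these was tested. The Col1a2 call was lost in 6 of the 8 refits that left out 1 library, all but those without replicate 2 of either group (adjusted p 0.0853 to 0.138), and in DESeq2 (adjusted p = 0.103). Leaving out tumour-bearing spleen replicate 2 moved the log2 fold change of Cdh1 to 5.79, still called. The part of RNA from dendritic cells, macrophages, neutrophils, stromal cells or carcinoma cells in the rise of the class II genes was not tested.

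Within the NK table the 4 members ran together across the 11 libraries, with a Pearson r of log2 CPM between 0.72 (H2-Ab1 with H2-Ea) and 0.92 (H2-Aa with Cd74). These values mostly reflect the group means: with group means removed, the same pairs had r between -0.02 (H2-Ab1 with H2-Ea) and 0.61 (H2-Ea with Cd74). H2-Ab1 followed H2-Eb1 more closely within groups (r = 0.91) than it followed its own partner H2-Aa (r = 0.25). The genes most like each member over all 11 libraries were Tmem176a for H2-Aa (r = 0.98), Eif5a for H2-Ab1 (r = 0.98), Ext1 for H2-Ea (r = 0.93) and Ifi27l2a for Cd74 (r = 0.97), with H2-Eb1 second for Cd74 (r = 0.95). The points share the group structure and the depth of their libraries, and no p is given.

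In the sCAF libraries all 4 genes were far more abundant. H2-Aa was at 3233, 2112 and 759.8 CPM in sCAF replicates 1 to 3, which is 0.323% of all counts in replicate 1 (95% Clopper-Pearson interval 0.316% to 0.331%), 0.211% in replicate 2 (0.203% to 0.219%) and 0.0760% in replicate 3 (0.0714% to 0.0808%). It ranked 32, 54 and 186 by count among the 12235 genes listed. These intervals cover counting error only and do not overlap, so the libraries differ by more than counting error.

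The other members were high and low in the same libraries. H2-Ab1 was at 1371, 910.4 and 307.8 CPM, H2-Ea at 973.3, 661.6 and 165.2 CPM, and Cd74 at 1769, 1204 and 524.1 CPM in replicates 1 to 3. The means were 2035 ± 1238 (SD, n = 3) CPM for H2-Aa, 862.9 ± 532.9 (SD, n = 3) for H2-Ab1, 600.0 ± 407.6 (SD, n = 3) for H2-Ea and 1166 ± 623.4 (SD, n = 3) for Cd74. Replicate 1 was the highest and replicate 3 the lowest for each, as in 17.3% of the 7602 sCAF genes with a mean of at least 10 CPM.

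The spread between sCAF libraries was wide for these genes. The highest library exceeded the lowest 4.25-fold for H2-Aa, 4.45-fold for H2-Ab1, 5.89-fold for H2-Ea and 3.38-fold for Cd74, against a median of 1.41-fold over those 7602 genes, of which 14.3% exceeded 2-fold. By the SD of log2 CPM they stood at percentiles 98.1, 98.4, 99.2 and 96.9. There is no second group in the sCAF table, and no test was made.

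Most other class II genes were also highest in replicate 1 and lowest in replicate 3. H2-Eb1 was at 2544, 1561 and 370.2 CPM, H2-DMa at 646.5, 524.3 and 156.9 CPM, and H2-DMb1 at 329.1, 227.6 and 96.9 CPM. H2-DMb2, a second β chain gene of the editor, had 51, 23 and 2 counts, and Ciita, the switch of the whole set, 21, 10 and 2 counts (9.42, 7.59 and 1.5 CPM). H2-Oa, with 6, 4 and 1 counts (2.69, 3.03 and 0.751 CPM), was near the limit of 3 counts and had its highest CPM in replicate 2.

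The RNA of genes of the interferon gamma route varied much less across the same libraries. The activity of the route was not tested, and interferon-inducible genes picked for a large difference are given in the closing section. Ifngr1 was at 59.6, 60.7 and 63.8 CPM, Ifngr2 at 85.6, 80.4 and 124.6 CPM, Jak1 at 93.7, 99.4 and 132.9 CPM, and Jak2 at 257.8, 224.6 and 316.8 CPM. Each of these was highest in replicate 3. Irf1, at 1525, 1302 and 1197 CPM, had the class II order with a 1.27-fold range. Rfx5 was at 24.2, 21.2 and 17.3 CPM, a 1.40-fold range, and Ctss at 13.9, 11.4 and 11.3 CPM, so the protease that rose with class II in tumour NK was low in sCAFs.

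The summed leukocyte lists were not highest in replicate 1 in the sCAF libraries, except for the dendritic cell list. The any-leukocyte list, 5 of 6 genes listed, summed to 41.2, 66.0 and 28.5 CPM in replicates 1 to 3. It was thus lowest in replicate 3, as the class II members were. Ptprc, which encodes CD45, had 4, 0 and 2 counts. The macrophage and monocyte list, 11 of 14 genes, summed to 155.5 to 205.7 CPM, with replicate 2 the lowest and replicate 3 the highest, and C1qa was at 16.6, 8.35 and 18.8 CPM. Of 13 B cell genes 3 were listed, summing to 1.35 to 2.25 CPM with Cd79b at 0 counts in all 3 libraries. The dendritic cell list, 3 of 10 genes, summed to 493.9 to 635.7 CPM, nearly all of it Fscn1, an actin bundler also made by stromal cells, with Zbtb46 at 2.24, 6.07 and 4.50 CPM. The neutrophil list, 6 of 7 genes, summed to 166.3, 267.1 and 486.5 CPM in replicates 1, 2 and 3, nearly all of it Mmp9, a matrix protease also made by stromal cells. Among the single macrophage genes, Ccr2 was highest in replicate 1 and lowest in replicate 3, with 5, 2 and 1 counts.

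The label of these libraries was read against fibroblast and epithelial markers. All 11 fibroblast genes were listed, summing to 1224, 1948 and 2785 CPM in replicates 1 to 3, the reverse of the order seen for class II, and the collagen gene Col1a1 was at 46.2, 73.6 and 81.8 CPM. All 9 genes of the epithelial list were listed too, summing to 3434, 4487 and 3665 CPM, above the fibroblast sum in each library. Of the keratins on that list, Krt18 was at 2300, 2993 and 2250 CPM and Krt8 at 826.3, 763.2 and 690.8 CPM. Krt19 (19.7 to 43.5 CPM) and Krt14 (8.97 to 37.2 CPM) were below Col1a1 in each library. Epcam, the epithelial antigen of the sort, was at 5.83, 27.3 and 24.8 CPM. The list for mesothelial cells or antigen-presenting fibroblasts had 5 of 6 genes listed, summing to 814.6, 1049 and 1046 CPM in replicates 1 to 3. Most of each sum was Slpi, a protease inhibitor, at 642.5, 774.6 and 682.5 CPM. Msln, mesothelin, was at 127.3, 187.4 and 247.8 CPM, and the other listed genes made up the small remainder. The part of any of these cell types in the class II levels was not tested.

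**Figure D3:**
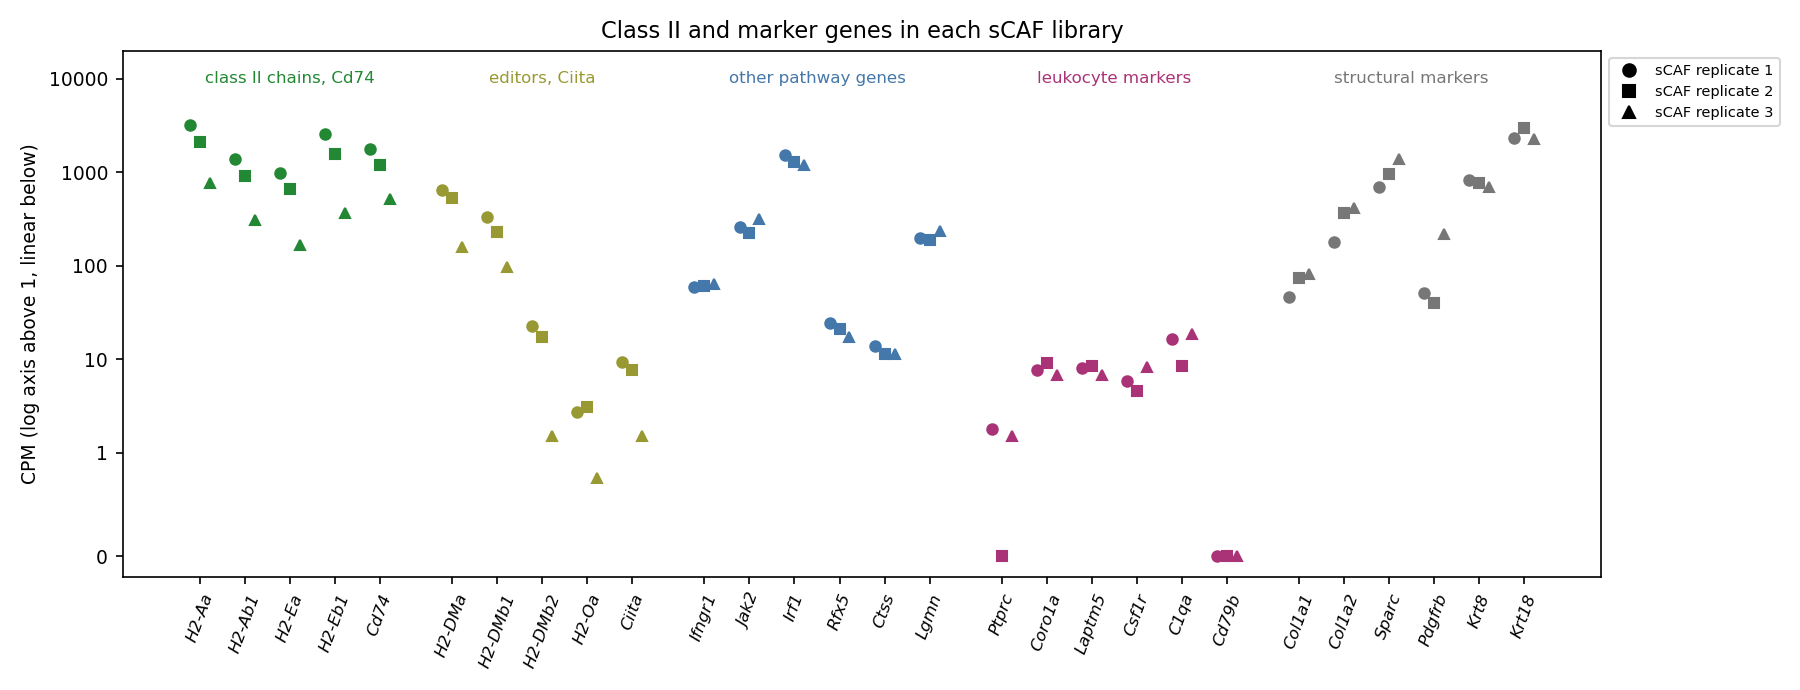
CPM in sCAF replicates 1 to 3 (circle, square, triangle) for class II genes, their editors with Ciita, other pathway genes, leukocyte markers and structural markers; the axis is logarithmic above 1 and linear below. The class II chains and Ciita are highest in replicate 1 and lowest in replicate 3, Sparc, Col1a1 and Col1a2 the reverse, and Ptprc stays below 2 CPM.

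Set beside tumour NK on raw totals of each table, the mean sCAF level was 18.6-fold higher for H2-Aa, 7.05-fold for H2-Ab1, 42.9-fold for H2-Ea and 18.0-fold for Cd74. The lowest sCAF library still exceeded the highest tumour NK library 6.32-fold for H2-Aa, 2.13-fold for H2-Ab1, 9.44-fold for H2-Ea and 5.51-fold for Cd74. The tables were counted and deposited separately and list different genes, so these are levels side by side, not a test. H2-Oa went the other way, at a mean of 2.16 CPM in sCAF and 17.3 CPM in tumour NK. H2-DMb1 had 129 to 734 counts in sCAF libraries against the 0, 0, 6 and 0 counts of tumour NK.

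Ratios between members within a library do not depend on the library total. H2-Ab1 counts per H2-Aa count were 0.424, 0.431 and 0.405 in sCAF replicates 1 to 3, nearly constant while the levels changed more than 4-fold. They were 0.923, 1.35, 1.07 and 1.20 in tumour NK, 0.781, 1.30, 1.76 and 3.03 in tumour-bearing spleen NK and 1.38, 2.52 and 1.69 in healthy spleen NK. So all NK libraries had more H2-Ab1 per H2-Aa than any sCAF library. NK and sCAF libraries were counted separately, so cell type and counting cannot be told apart in ratios set between them.

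The difference between tumour NK and sCAF in H2-Ab1 per H2-Aa was 1.42 on the log2 scale (exact two-sided permutation p = 0.0286, the smallest that 4 against 3 libraries allows, and 0.152 after Benjamini-Hochberg adjustment over the 8 ratio tests made). H2-Ea counts per H2-Aa count were 0.301, 0.313 and 0.217 in sCAF and 0.148, 0.183, 0.148 and 0.0507 in tumour NK, lower in all 4 tumour libraries (exact permutation p = 0.0571, adjusted 0.152). Cd74 counts per H2-Aa count were 0.547, 0.570 and 0.690 in sCAF and 0.490, 0.550, 0.833 and 0.493 in tumour NK, which overlap (difference -0.05 on the log2 scale, exact permutation p = 0.886). None of the 8 ratio tests passed adjustment. In the lowest spleen libraries these ratios rest on fewer than 10 counts of a gene. For H2-Ea this holds in every spleen library but tumour-bearing spleen replicate 1, and in tumour NK replicate 4, which had 7 counts.

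**Figure D4:**
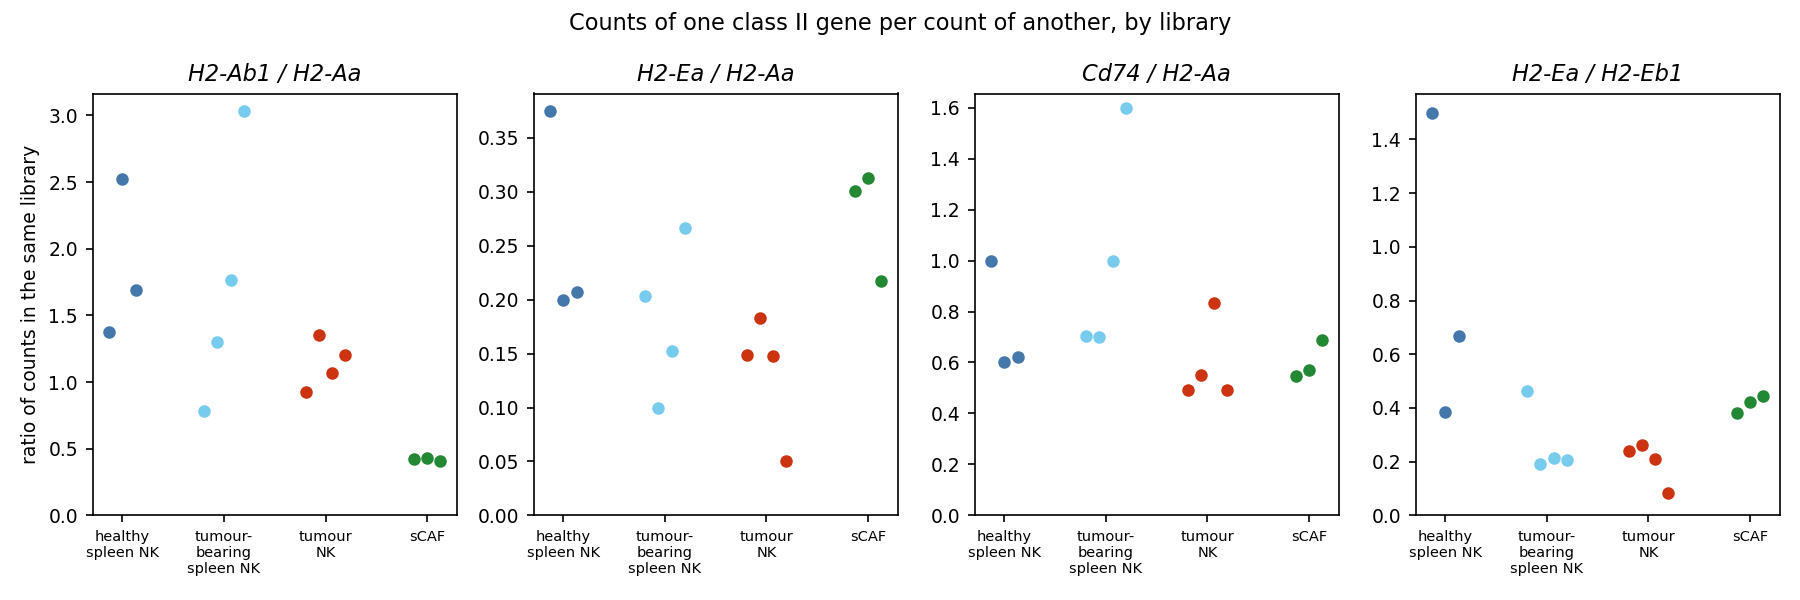
Ratio of the counts of class II gene pairs within each library (points), by group, on linear axes from 0. H2-Ab1 per H2-Aa is between 0.405 and 0.431 in the sCAF libraries and at 0.781 or more in every NK library, and Cd74 per H2-Aa overlaps between sCAF and tumour NK.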

How the data were processed

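The authors deposited unnormalized counts for each gene symbol: 1 table covers 11 NK libraries and 1 covers 3 sCAF libraries. Reads were demultiplexed with bcl2fastq, aligned with STAR 2.4.2a and counted with HTSeq on mm10, per the submitters' processing notes; the annotation, strand setting and use of molecular identifiers are not given in the sources used here. In each table's header a run of spaces stood for a tab, and columns were read by position. No NK gene has a highest count under 6, so low genes appear to have been dropped and totals are sums over listed genes. A count of 0 allows up to 3 counts, 1.54 to 4.62 CPM in NK and 1.35 to 2.28 CPM in sCAF libraries.

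The members and lists were chosen with earlier results of these data known. Genes were filtered with filterByExpr, scaled by TMM and fitted over all 11 NK libraries with group as the only term in edgeR 4.0.16 (R 4.3.3), with Benjamini-Hochberg adjustment per contrast; the fit was tested on simulated data. The sCAF libraries have no control group and were described by CPM with exact 95% Clopper-Pearson intervals. Ratios of counts were compared by exact permutation tests. Named genes are the members, the pathway list less an item not reported here, the marker lists and, per member, genes with the highest r of log2 CPM (prior count 2) over the NK libraries. Alternatives were other scalings, no filter, DESeq2 1.42.0, blocks, subsets of groups and leaving out each library. The labels do not say whether replicate numbers pair the samples, and the main fit does not pair them. The correlations of deviations in the closing section rest on 4 same-numbered pairs and cannot settle this.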

Additional observations from a re-analysis of the deposited data

Results flagged for a closer look

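In groups of 4 NK libraries, a library was singled out where its gap to the nearest of the others exceeded Dixon's 95% critical value, taken as a share of the group's range; 48 groups were examined, and chance alone singles out about 1 in 20. H2-Aa in tumour NK replicate 2 was at 86.9 CPM, below the other tumour libraries, with a gap of 0.888 of the range. Rfx5, a subunit of the complex that binds the X box, was at 10.6 CPM in tumour-bearing spleen NK replicate 2, below the others, with a gap of 0.938 of the range. Lag3, the inhibitory receptor for class II, was at 52.8 CPM in tumour-bearing spleen NK replicate 4, above the others, with a gap of 0.922 of the range.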

How the results depend on the processing

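The 4 members in the 2 tumour comparisons were refitted 124 times under the alternatives, and 122 fits kept the direction and the call. The 2 others concerned H2-Ea, against tumour-bearing spleen replicates 1 and 2 (adjusted p = 0.0627) and against healthy spleens without replicate 2 (adjusted p = 0.0538), both with fewer libraries. Between the spleens, 53 of 58 fits left the members uncalled and 5 called H2-Ab1 or Cd74. Of 918 fits of other pathway genes 873 kept their side of the threshold, 36 lost and 9 gained a call, and no called gene reversed; 39 fits changed the sign of a gene that was not called.

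Scaling shifted the split of calls over all genes. In tumour against tumour-bearing spleen NK, 54.5% of called genes were higher under TMM, 41.6% with upper-quartile scaling and 37.7% on raw totals, which moved the median of all genes to -0.12 (log2); H2-Aa then had a log2 fold change of 1.84, H2-Ab1 1.39, H2-Ea 1.36 and Cd74 1.21, all called. Against healthy spleens the share was 54.2% under TMM, 42.4% with upper-quartile scaling and 32.8% on raw totals (median -0.18), and between the spleens 77.6% under TMM, 65.9% on raw totals and 64.1% with the side as a block.

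Against tumour-bearing spleen replicates 1 and 2 alone, 1495 genes were called in place of 2453. Between the spleens 134 genes were called, 691 with the side of the second component as a block, and 42 to 125 when a library was left out (42 without healthy replicate 2, 67 without healthy replicate 3). Pathway genes called there numbered 1, against 2 with the replicate block, 3 in DESeq2, 2 with only the groups compared, 6 with the side as a block and 0 to 2 when a library was left out. The cause of these differences was not tested. In same-numbered spleen and tumour libraries deviations correlated with r from -0.05 to 0.29, over 0.1 in 2 of 4 pairs, and 2 of 4 tumour libraries correlated best with their own number; the block moved calls in tumour against tumour-bearing spleen NK from 2453 to 2626 and called Cd74 between the spleens (adjusted p = 0.0291). Depth limits H2-Ea most, with 3 to 31 counts per NK library.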

Other observations

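Genes with the largest excess of sCAF replicate 1 over replicate 3 were looked up after the values were seen, among the 7602 genes with a mean of at least 10 CPM. H2-DMb2 ranked 4, H2-Eb1 14, H2-Ea 16, H2-Ab1 28, H2-Aa 36, H2-DMa 38, H2-DMb1 61 and Cd74 62 in that order. Gbp5 and Gbp8, guanylate-binding proteins inducible by interferon, were at 32.7, 17.4 and 3.00 CPM and at 36.8, 25.8 and 3.75 CPM in replicates 1 to 3. Cxcl11, a chemokine that draws CXCR3-bearing lymphocytes, was at 31.8, 15.2 and 3.00 CPM. Ube2l6, the conjugating enzyme of the ubiquitin-like protein ISG15, was at 284.2, 125.9 and 57.1 CPM. These were chosen for the difference they show, and no test was made. The list also held genes with no such background, and they stood at its top. Acot1, Lmo1 and Atp5g1 ranked 1, 2 and 3, ahead of every gene named above. Gapdh, a glycolytic enzyme, ranked 5, at 270.3, 16.7 and 18.8 CPM, high in replicate 1 alone.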
